A study of Rattus norvegicus with 9 samples.

Results

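The first day after PEL surgery was examined by setting the 3 libraries labelled PEL_1d against the 3 labelled Control, 6 of the 9 libraries of the series. PEL stands for pituitary stalk electrical lesion, an injury to the bundle of axons that joins the hypothalamus to the pituitary. All libraries came from S-D rats, and from hypothalamic tissue that held the supraoptic nucleus (SON) and the paraventricular nucleus (PVN), and were made from total RNA. The treated rats were sampled 1 d after the surgery. What was done to the Control rats (sham surgery or none) is not given in the sources used here, nor are age and sex. Nothing states that each library came from a separate rat, so the p-values weigh differences only against the spread among these libraries, which may be technical.

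The SON and PVN contain the magnocellular neurons, which make vasopressin and oxytocin and send them down axons in the pituitary stalk for release from the posterior pituitary. Cutting or burning the stalk injures these axons far from their cell bodies, and loss of vasopressin release leads to central diabetes insipidus, in which the kidney cannot concentrate urine. In rodent neurons injured along the axon, and in the glia around them, transcription factors such as Atf3 and Jun are known to be induced, and galectin-3, the product of Lgals3, is known from activated microglia and macrophages. The series was titled around these 3 genes.

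Genes were identified in the count table by Ensembl rat gene IDs or by IDs of another form, called non-Ensembl IDs here, and neither was paired with a symbol. The rat gene table used here has 47357 entries, with an Ensembl ID in 0 of them, so 0 of the 34784 IDs were matched. Atf3, Jun, Lgals3, Avp and Oxt therefore have no value here, 27 gene lists for cell types and pathways were not tested, and the labelled tissue was not checked against marker genes. The response is described through its size, its abundance classes, its ID classes and 4 IDs chosen by rule. No sequence is shown because no ID could be tied to one. In bulk tissue, fewer cells of a type and less RNA per cell cannot be told apart.

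Total counts ranged from 18948576 to 21012998 in the Control libraries and from 13338433 to 17294334 in the 1 d libraries. All 1 d libraries were shallower than all Control libraries (exact two-sided permutation p = 0.1, the smallest that 3 against 3 libraries can give). Replicates of a group differed by more than sampling noise in every pair, with a chi-square statistic of 18.3 to 38.1 per degree of freedom within Control and 6.80 to 16.7 within 1 d. The 1 d replicate 3 was the shallowest library, and it held 3 IDs with at least 10 counts that had no count in the other 5 libraries, against 0 or 1 such IDs in each of the others.

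One day after the lesion the transcriptome had shifted broadly, with rises at all levels of abundance and falls that were mostly small and of abundant transcripts. Of the 17345 IDs tested, 1977 rose and 1563 fell (quasi-likelihood test of edgeR, adjusted p below 0.05 by Benjamini-Hochberg), which is 20.4% of those tested, 11.4% upward and 9.01% downward. The median log2 fold change over all tested IDs was -0.02. Among rises it was 0.79 (10th to 90th percentile 0.36 to 1.78), and among falls -0.39 (-0.66 to -0.26). The median Control level was 14.3 CPM for rises, 69.3 CPM for falls and 16.6 CPM over all tested IDs. At an adjusted p below 0.01 there were 548 rises and 314 falls, and below 0.005 there were 171 and 95. Calls dropped to 1577 when Control replicate 2 was left out, to 1575 and 1440 when 1 d replicates 1 and 2 were, and to 2066 when the 6 libraries were fitted alone. Falls dropped to 919 when 1 d replicate 3 was left out; with library totals as the only scaling, rises outnumbered falls by 2471 to 856.

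**Figure D1:**
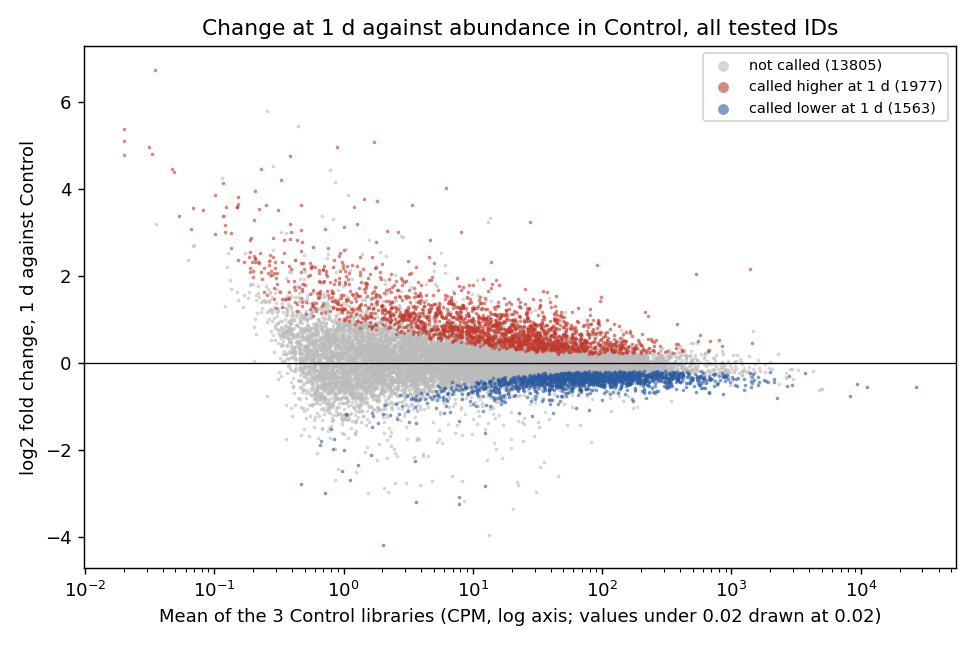
Each point is 1 tested ID, placed by its mean in the 3 Control libraries (CPM, log axis) and its log2 fold change at 1 d; red points were called higher (1977), blue points lower (1563), grey points were not called (13805). Rises reach farther from 0 than falls and are spread over low and high abundance, with the largest at low abundance. Falls crowd close to 0 at high abundance.

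Called rises were larger than called falls, but less so within classes of like Control mean. Median log2 changes of called rises and falls were 2.07 and -1.94 under 1 CPM and 1.07 and -0.83 from 1 to 10. They were 0.58 and -0.4 from 10 to 100 CPM and 0.38 and -0.35 at 100 CPM and over. A rise of at least 2-fold was called for 700 IDs, 35.4% of all rises, while a fall of that size was called for 43, 2.75% of all falls. At 4-fold the numbers were 149 and 12, at 8-fold 46 and 5, and at 16-fold 15 and 1. These counts depended on single libraries: leaving out Control replicate 2 or 3 gave 428 or 1094 rises of at least 2-fold, and leaving out 1 d replicate 1 or 2 gave 436 or 420. Falls of that size came to 25 or 91 when Control replicate 1 or 3 was left out, and to 16 or 21 when 1 d replicate 1 or 2 was. Rises of at least 4-fold numbered 255 without Control replicate 3. A test against a 2-fold minimum, which asks for more than a fitted change of 2-fold, called 12 rises and 1 fall. Over all tested IDs, called or not, 1029 had a fitted rise of at least 2-fold and 273 a fitted fall of that size. At 4-fold these numbers were 195 and 45, so at both sizes the imbalance was smaller than among the calls.

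The same asymmetry was present in the libraries themselves. For 181 of the IDs that rose, the lowest 1 d library was at least 2 times the highest Control library, and for 42 it was at least 4 times; 1 of them had no count in Control. Among falls, the lowest Control library was at least 2 times the highest 1 d library for 12 IDs, and at least 4 times for 2. Groups did not overlap for 99.1% of the rises and 99.4% of the falls. Over all tested IDs the share without overlap was 39.7%, with 20.2% higher and 19.5% lower at 1 d. This is a description of the same values that made the calls. Most falls were small: 1333 of the 1563 were under 1.5-fold, and these had a median log2 fold change of -0.37 and a median Control level of 79.9 CPM.

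**Figure D2:**
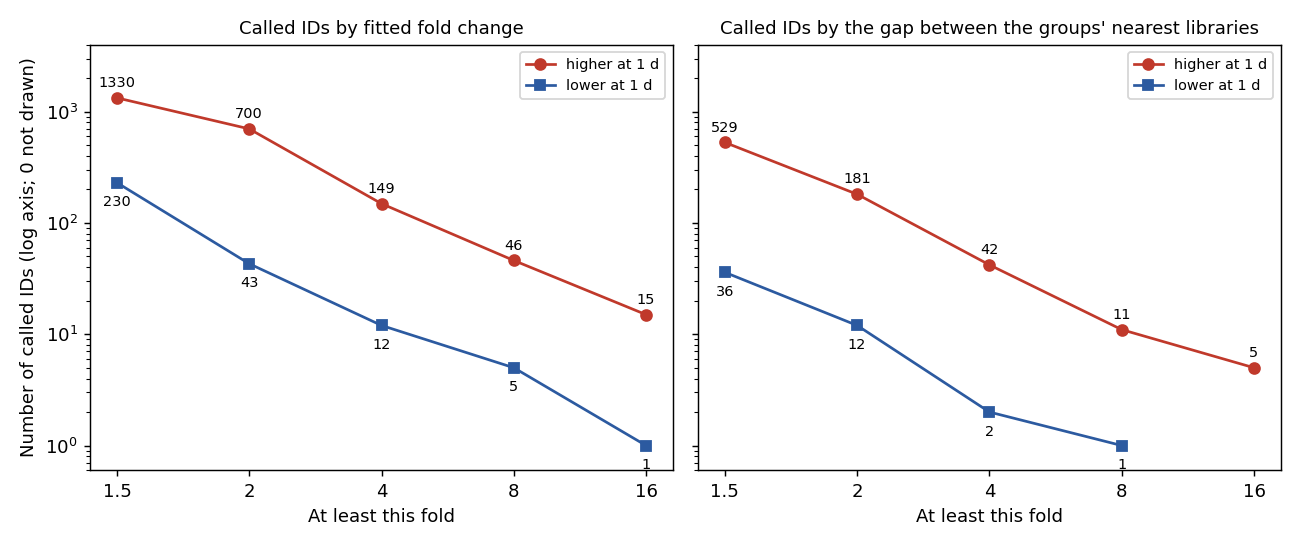
Number of called IDs (log axis) at or past each fold, for rises (red) and falls (blue), by the fitted fold change on the left and by the gap between the nearest libraries of the groups on the right. At 4-fold the left panel has 149 rises and 12 falls and the right panel 42 and 2.

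The strongest rises started from a very low level in Control. The 149 IDs that rose at least 4-fold had a median of 0.465 CPM in Control and 2.83 CPM at 1 d, and 107 of them were under 1 CPM in Control. At 1 d 25 of the 149 had reached 10 CPM and 4 had reached 100 CPM. The 1277 rises under 2-fold were of abundant transcripts by comparison, with medians of 26.2 CPM in Control and 38.4 CPM at 1 d. The filter on low counts bears on the first set, since an ID near 0 in Control was tested only if it was higher in another group.

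The largest rise that met the naming rule was that of ENSRNOG00000058105. Its level was 1.47, 2.57 and 1.09 CPM in Control replicates 1 to 3 and 55.2, 73.0 and 43.5 CPM in 1 d replicates 1 to 3. The groups lay far apart, with the lowest 1 d library at 16.9 times the highest Control library. The mean went from 1.71 ± 0.771 to 57.2 ± 14.9 CPM (SD, n = 3 each). This was a change of 5.07 on the log2 scale (SE 0.715, adjusted p = 0.00662 by edgeR, range 1.36e-07 to 0.0288 over 18 alternatives).

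ENSRNOG00000061299 had the next largest rise. It stood at 0.891, 1.5 and 0.283 CPM in the Control libraries and at 28.7, 34.8 and 19.5 CPM in the 1 d libraries. Its lowest 1 d value, in replicate 3, was 13 times its highest Control value, in replicate 2. It rose 31.2-fold, or 4.97 on the log2 scale (SE 0.652, adjusted p = 0.00474 by edgeR, range 2.22e-09 to 0.02 over 18 alternatives). In both of these IDs Control replicate 2 and 1 d replicate 2 were the highest of their groups, and replicate 3 the lowest.

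Among falls ENSRNOG00000005017 came first, going from 9.28, 7.55 and 6.47 CPM in the Control libraries to 0.224, 1.01 and 1.27 CPM at 1 d. The counts behind the 1 d values were 4, 16 and 18 reads, against 177, 141 and 137 in Control. All Control libraries were thus well above all 1 d libraries, and the lowest of them was 5.08 times the highest 1 d library. The log2 fold change was -3.24 (SE 0.418, edgeR adjusted p = 0.00336, range 4.41e-15 to 0.0188 over 18 alternatives).

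ENSRNOG00000025216 ranked second among the falls but varied widely in Control. It was at 16.4, 5.41 and 1.51 CPM in Control replicates 1 to 3 and at 1.12, 1.14 and 0.424 CPM at 1 d. Control replicate 3 was only 1.33 times the highest 1 d library. The log2 fold change was -3.09 (SE 0.845, edgeR adjusted p = 0.0365), and the call was lost in 8 of 18 alternatives, with an adjusted p of up to 0.143. It was lost when Control replicate 1 (log2 fold change -1.92, adjusted p = 0.0555), Control replicate 2 (-3.30, 0.0633) or any 1 d replicate (-2.78 to -3.29, 0.0973 to 0.103) was left out.

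**Figure D3:**
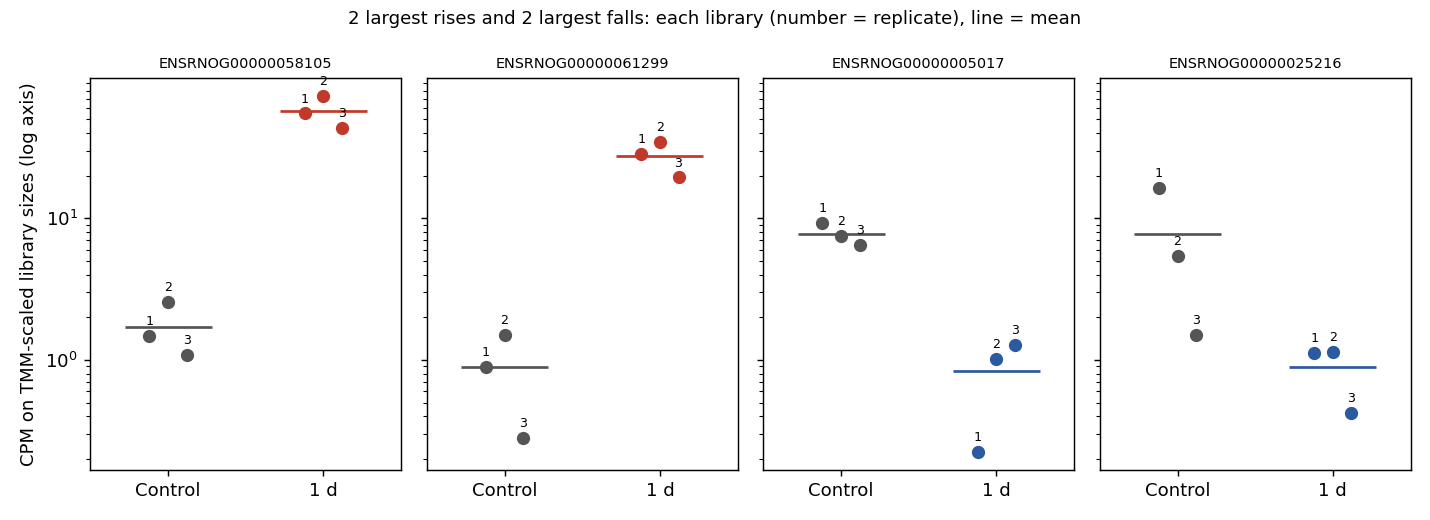
CPM on a log axis in each Control and 1 d library for the IDs with the 2 largest rises (left) and the 2 largest falls (right); numbers mark the replicate and lines the group mean. The groups of ENSRNOG00000058105 lie 16.9-fold apart at their nearest libraries, and those of ENSRNOG00000025216 only 1.33-fold.

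Beyond these, the 12 largest rises under the rule spanned 9.48- to 33.6-fold and the 12 largest falls 2.07- to 9.45-fold. All 12 rises had Ensembl IDs, while 2 of the 12 falls had non-Ensembl IDs. Of the 12 rising IDs 11 were under 10 CPM in Control and 5 under 1 CPM; their 1 d means ran from 5.31 to 262 CPM, and 1 exceeded 100 CPM. In all 12 the lowest 1 d library was at least 2 times the highest Control library, with gaps from 2.21 to 17.3 times. The most even was the rise of rank 3, with log2 differences from the Control mean of 3.60, 3.67 and 3.61 in the 1 d libraries. The least even was the rise of rank 12, at 4.18, 1.14 and 2.93, while its Control libraries lay within 0.01 of their mean. Among the 12 falls the gap reached 2 times in only 2, and only the 2 largest had a 1 d mean under 1 CPM.

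**Figure D4:**
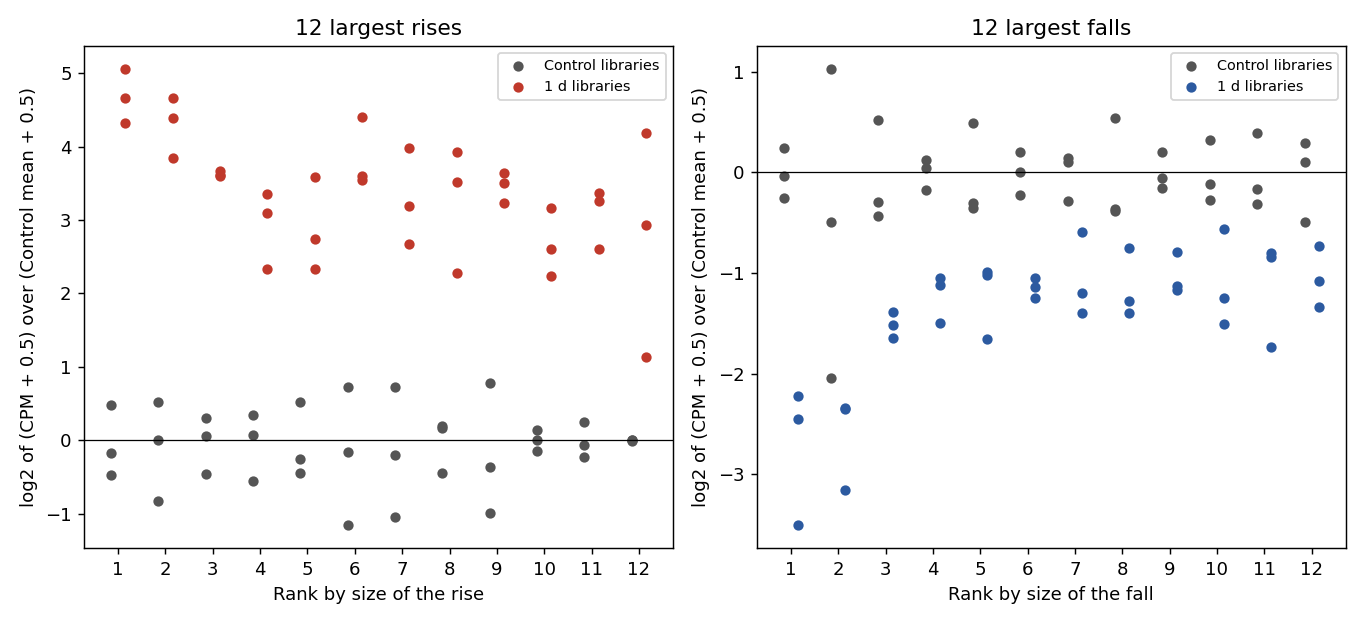
Log2 of the CPM of each library over the Control mean (0.5 added to both) for the 12 largest rises (left, 1 d in red) and the 12 largest falls (right, 1 d in blue), Control libraries in grey. The 1 d points of rises lie between 1.14 and 5.06 and those of falls between -3.51 and -0.56.

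The share of tested IDs called lower grew with transcript abundance. By Control mean it was 0.471% under 1 CPM, 1.64% from 1 to 10, 10.9% from 10 to 100 and 26.5% from 100 CPM. The share called higher was 11.8, 11.8, 12.4 and 6.36% in these classes. Of 2200 IDs with a Control mean of 100 CPM and over, 140 rose and 584 fell, so 80.7% of the calls were falls, with median log2 fold changes of 0.38 and -0.35 among rises and falls. In the class from 10 to 100 CPM 1009 rose and 884 fell, from 1 to 10 CPM 628 rose and 87 fell, and under 1 CPM 200 rose and 8 fell. The median log2 fold change over all tested members of a class, called or not, went from 0.31 under 1 CPM through 0.08 and -0.04 to -0.14 at 100 CPM and over. The most abundant class had the highest share called, 32.9%, and the class under 1 CPM the lowest, 12.3%. The filter on low counts bears on the class under 1 CPM, and so on its 200 to 8 split and its median of 0.31. There an ID near 0 in Control was tested only if it was higher in another group. Its few reads also leave little room for a called fall. Few reads limit called falls from 1 to 10 CPM too, where the median among them was -0.83 on the log2 scale. How much of the 628 to 87 split comes from this was not tested.

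Classes cut on the Control mean use values that also enter the fold change. IDs were therefore also classed by the mean of the 7 d libraries. The counts of those libraries do not form this fold change, but they enter the filter, the scaling and the spread behind the calls. By the 7 d mean 127 rose and 583 fell at 100 CPM and over, and 157 rose and 10 fell under 1 CPM. The share of falls at 100 CPM and over lay between 73.2 and 87.7% whichever of the 6 libraries was left out, although leaving out Control replicate 2, 1 d replicate 1 or 1 d replicate 2 lowered the counts of rises and of falls in every class by over 1.5 times, and leaving out Control replicate 1 or 1 d replicate 3 those of falls in 3 classes each. The split depended on scaling: it was 228 rises to 352 falls with library totals alone, and 274 to 286 (51.1% falls) after cyclic loess normalization, which takes out trends with abundance.

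**Figure D5:**
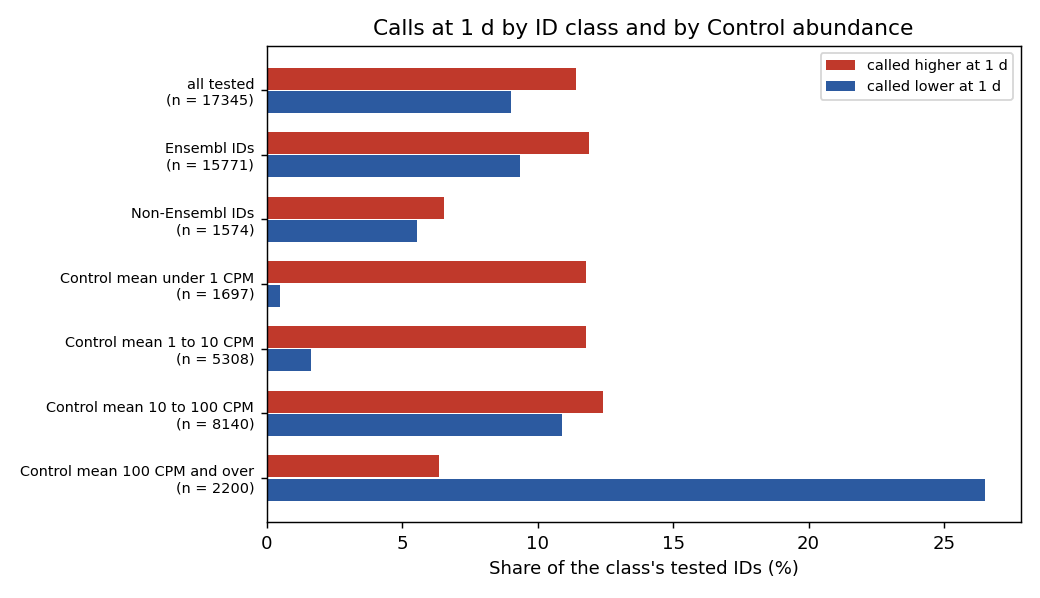
Share of the tested IDs of each class called higher (red) or lower (blue) at 1 d, for all IDs, for the ID classes and for 4 classes of Control mean, with the number tested in brackets. Falls make up 26.5% of the most abundant class and 0.471% of the least abundant.

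The counts themselves were redistributed accordingly. IDs called higher together took up 5.65 to 7.59% of a Control library and 10.7 to 11.5% of a 1 d library, and IDs called lower held 27.5 to 30.7% and 22.6 to 23.1%. The 149 rises of at least 4-fold went from 0.212 ± 0.0294% to 1.04 ± 0.0615% of counts (SD, n = 3 each). These shares describe the calls and are no test of them. A measure that does not use the calls, the share of the 10 most abundant IDs, was 6.87 to 9.43% in Control and 6.13 to 6.36% at 1 d, a mean difference of -1.56 percentage points (exact two-sided permutation p = 0.1, the smallest possible). For the 20 and the 100 most abundant IDs the differences were -1.83 and -2.37 points, with the same p. Control replicate 1 held the highest share of all 6 libraries in each case, and without it the 3 differences were -0.733, -1.05 and -1.54 points.

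The table did not say how its non-Ensembl IDs were defined. They numbered 1574 among the tested IDs and were mostly of low abundance, with a median Control level of 2.07 CPM against 19.9 CPM for the 15771 Ensembl IDs. Of the non-Ensembl IDs 103 rose and 87 fell, 12.1% of those tested, against 21.2% of the Ensembl IDs (1874 rose, 1476 fell). The median log2 fold change over all tested members was -0.10 for non-Ensembl and -0.01 for Ensembl IDs. Of these rises 65 were at least 2-fold and of these falls 13, against 635 of the 1874 rises and 30 of the 1476 falls of Ensembl IDs. After cyclic loess normalization falls outnumbered rises among non-Ensembl IDs, 114 to 91. Rises and falls among them numbered 45 and 37 when Control replicate 2 was left out, 52 and 33 when 1 d replicate 1 was, and 48 and 32 when 1 d replicate 2 was.

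Within classes of like abundance the lower share called among non-Ensembl IDs did not always hold. Under 1 CPM in Control 8.58% of them were called against 13.3% of Ensembl IDs, and from 1 to 10 CPM 8.62% against 14.5%. From 10 to 100 CPM the order turned, with 30.5% against 23.1%, and at 100 CPM and over it was 44.4% against 32.8%. The ID classes also had different splits of direction. From 10 to 100 CPM in Control, 18 non-Ensembl IDs rose and 49 fell of 220, so 73.1% of the calls were falls, against 45.7% for Ensembl IDs (991 rose, 835 fell of 7920). From 1 to 10 CPM 57 non-Ensembl IDs rose and 26 fell of 963, or 31.3% falls, against 9.65% for Ensembl IDs. Of only 18 non-Ensembl IDs at 100 CPM and over, 8 fell and 0 rose (10 were not called). These shares and splits are descriptive, and the difference between ID classes was not tested. The share of all counts on non-Ensembl IDs was 1.39 to 1.43% in Control and 1.32 to 1.44% at 1 d, ranges that overlap (exact permutation p = 0.5).

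The number of IDs with at least 1 count was 20960 to 21254 in Control and 20871 to 21187 at 1 d, although the 1 d libraries were shallower. After all libraries were thinned to 13338433 counts, the number was 20426 to 20633 in Control and 20681 to 21076 at 1 d. The thinned ranges do not overlap, and the means differ by 312 IDs (exact two-sided permutation p = 0.1, the smallest possible). Without 1 d replicate 3, the highest library, the difference was 196, over 1.5 times smaller.

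Appearance of a transcript from no count was rare and sparse. An ID with no count in any Control library had at least 1 count at 1 d in 1246 cases, but only 16 of these reached 10 counts over the 3 libraries, 56 were counted in all 3, and 1 entered the test, where it was called higher. The reverse, no count at 1 d and at least 1 in Control, was found for 1333 IDs, of which 13 reached 10 counts and 43 were counted in all 3 Control libraries. The order of these sets turned at equal depth: with all libraries thinned to 13338433 counts, 1424 IDs had appeared and 1144 had disappeared, of which 20 and 6 reached 10 counts and 74 and 33 were counted in all 3 libraries of their group. The highest of the 16 had 73 counts, all in 1 d replicate 3, as were the 68 and 31 counts of the IDs of rank 2 and 4. These values rest on that library alone. The highest of the 16 that was counted in every 1 d library was a non-Ensembl ID with 18, 2 and 14 counts, which did not enter the test. Its level was 14.8 times the one that 3 counts over the Control group would give.

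How far the calls held in a library that had not made them was read from fits that left out 1 d replicates in turn. The Control libraries are shared between the fit and the reading, and the scaling of the reading took in the left-out library. This sharing by itself raises the shares among called IDs over those among all tested IDs, by an amount that was not tested. The shares below are therefore no independent test of the calls. The reading covered the called IDs that were also among the 17345 tested with all libraries: 912 of the 915 called higher without 1 d replicate 1, 835 of 844 without replicate 2, 1588 of 1596 without replicate 3, and every ID called lower. Of the 912, 99.6% were above the Control mean in that replicate, against 48.8% of all tested IDs, and 99.1% were above every Control library, against 33.2%. For the 660 called lower without it, 99.4% were below every Control library, against 34% of all tested IDs. In 1 d replicate 2, 98.9% of the 835 lay above all Controls, and of the 596 called lower without it 98.0% lay below. In 1 d replicate 3 the shares were lower, 94.7% of the 1588 and 92.8% of the 919 called lower. For rises the median log2 difference in the left-out library was 0.94, 1.02 and 0.66 in replicates 1, 2 and 3, against fitted medians of 0.96, 0.99 and 0.87. For falls it was -0.38, -0.42 and -0.41, against fitted -0.47, -0.46 and -0.44. The left-out values are differences of log2 CPM with a prior count of 2, and the fitted ones are log2 fold changes of the model. Each replicate was also read on its own set of IDs. With these limits, replicate 3 stood farthest from the fit for rises and replicate 1 for falls.

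A smaller group of calls was made under every setting tried for this contrast, apart from those added after seeing the data. Under all of 15 other settings, which include leaving out each of the 6 libraries, 675 IDs were called higher each time, 34.1% of the rises, and 419 lower, 26.8% of the falls. The 675 had a median log2 fold change of 1.02, and 346 of them had risen at least 2-fold, 49.4% of the rises of that size. The 419 had a median of -0.47 and a median Control level of 94.2 CPM, and 6 of them had fallen at least 2-fold, 14.0% of the falls of that size. They included ENSRNOG00000058105, ENSRNOG00000061299 and ENSRNOG00000005017, and 11 of the 12 largest rises but 3 of the 12 largest falls. Non-Ensembl IDs made up 31 of the 675 and 22 of the 419. The number of IDs called in one direction here and in the other under another setting was 0 for each of the 15.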

How the data were processed

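Bulk RNA sequencing libraries of rat SON and PVN tissue were compared. The authors deposited raw whole-number counts per gene ID; per the submitters' processing notes, DESeq2 1.16.1, featureCounts 1.5.0-p3 and HISAT2 2.0.5 were used. Build, annotation and strand setting: not given in the sources used here. Hence reads of overlapping, antisense or near-identical genes may not be told apart. From the counts, edgeR 4.0.16 (R 4.3.3) filtered IDs (filterByExpr), applied TMM scaling and fitted all 9 libraries by group (glmQLFit, robust). The contrast of PEL_1d with Control was tested by glmQLFTest with Benjamini-Hochberg adjustment over the 17345 IDs tested. The 17439 IDs left out held 0.0670 to 0.0972% of a library. CPM are on TMM-scaled library sizes; standard errors are the log2 fold change over the square root of F. Total counts were 13338433 to 21012998. The ratio given for an ID with no count in Control uses a floor of 3 counts over that group. It allows for counting error in Control only. The test was also run on simulated data that gave every ID the same relative spread, which does not check the calls made here. IDs were named by rule: the 2 largest rises and falls (12 are summarised) with an adjusted p below 0.05, no overlap of libraries and at least 5 CPM where higher; without symbols, its gene lists were not used. Alternatives used other scalings, filters, DESeq2 1.42.0, limma-voom (limma 3.58.1), the 6 libraries alone, a replicate block and left-out libraries. Cyclic loess, thinning, shares of the 10 and 100 most abundant IDs without each library, Ensembl IDs only, a 2-fold minimum and classes by 7 d mean were added after seeing the data. Members, lists and classes were chosen with earlier results of these data known.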

Additional observations from a re-analysis of the deposited data

How the results depend on the processing

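Leaving out 1 library gave 1440 to 4595 calls (844 to 2530 higher, 596 to 2065 lower), 420 to 1094 rises and 16 to 91 falls of at least 2-fold, 113 to 255 rises and 8 to 18 falls of at least 4-fold, and 45 to 137 non-Ensembl rises and 32 to 108 non-Ensembl falls. By Control mean, rises and falls then numbered 98 to 232 and 2 to 12 under 1 CPM, 285 to 849 and 14 to 127 from 1 to 10, 402 to 1252 and 315 to 1194 from 10 to 100, and 37 to 197 and 263 to 732 at 100 CPM and over. The share difference of the 20 most abundant IDs ranged from -2.31 to -1.05, that of non-Ensembl IDs from -0.0704 to -0.00721, and the thinned ID number from 196 to 393. In the 6 libraries alone (fewer samples to estimate the spread) calls fell to 2066 (1229 higher, 837 lower), with 22 falls of at least 2-fold, 44 non-Ensembl falls, falls of 2, 24, 459 and 352 in the 4 classes from low to high, and rises of 595 and 58 in the upper 2 classes. Library totals alone gave 856 falls, 53 non-Ensembl falls, falls of 42, 456 and 352 in the upper 3 classes and 228 rises in the highest. Cyclic loess gave 82 falls of at least 2-fold, falls of 13, 161 and 286 in the classes under 1, 1 to 10 and 100 CPM and over, and 274 rises in the last. Falls under 1 CPM, 8 as reported, were 1 with the filter of more than 1 CPM, 4 by DESeq2, 5 after thinning and 5 with Ensembl IDs only; DESeq2 called 21 falls of at least 4-fold. The test against a 2-fold minimum, stricter by construction, called 13 (12 higher, 1 lower). As deposited, without thinning, the number of IDs with a count differed by -30. The labels do not say whether replicate numbers pair the libraries. Same-numbered deviations correlated weakly, at -0.098, 0.035 and -0.155, which cannot settle it. With the replicate block 1467 rose and 1128 fell, with 26 falls of at least 2-fold, 57 non-Ensembl falls, 3 and 35 falls in the 2 lowest classes and 90 rises in the highest. ENSRNOG00000025216 lost its call without the filter (adjusted p = 0.0761), by limma-voom (0.143) and in the 6 libraries alone (0.0837). Apart from what the left-out libraries and the counts above show, the cause of these moves was not tested. Of all recomputed values, 309 kept their direction and side of the threshold, or their size within 1.5 times, while 90 moved by more, 8 lost a call and 1 changed sign. Depth limits IDs near 1 CPM, where 1 d libraries hold few reads.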
